A study of Mus musculus with 18 samples.

Results

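The mRNA of embryonic cortical neurons that carried MTOR with the amino acid substitution L2427P was compared with the mRNA of neurons that carried wild-type (WT) MTOR. The comparison rests on 6 of the 18 libraries of the series, 3 for L2427P and 3 for WT, chosen by their labels alone. Both groups are C57BL/6 mouse embryos whose cortex was electroporated in utero with an MTOR construct at embryonic day 14. Neurons were isolated from it by flow cytometry on day 18. The WT neurons therefore received a construct as well, and both groups keep the MTOR gene of the host. The sources used here do not give the species and promoter of the construct, the sorting marker or the number of embryos behind a library. The series also holds mRNA of neurons with the substitution C1483Y, whose 3 libraries share the estimate of the spread here, and ribosome footprints of the same genotypes.

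MTOR is the kinase at the centre of the complexes mTORC1 and mTORC2. In many cells mTORC1 responds to amino acids through the Rag GTPases and to growth factors through the GTPase Rheb, and it promotes protein synthesis by phosphorylating S6 kinases and the 4E-BP inhibitors of translation initiation. The mRNAs of ribosomal proteins and elongation factors begin with a run of pyrimidines, the TOP motif, through which mTORC1 sets how well they are translated. MTOR mutations that activate the kinase in a fraction of cortical neurons occur in focal malformations of cortical development.

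Among mRNAs that were higher in L2427P and counted in all 6 libraries, Ppp1cb had the smallest unadjusted p. It encodes a catalytic subunit of protein phosphatase 1 and was at 333 CPM or more in all 3 L2427P libraries and 161 CPM or less in all 3 WT libraries. CPM is a gene's count scaled to a common library total over the named genes. Most mRNAs of ribosomal proteins were lower in L2427P than in WT, led by Rpl5, Rplp0, Rpl36 and Rpl3. A set of 62 genes, among them Chmp6, Ddit3 and Safb2, had mRNA at 20 CPM or more in every WT library and below 1 CPM in every L2427P library. No gene passed an adjusted p of 0.05 in edgeR's quasi-likelihood test across the 9558 genes tested, so these are levels that differ in the libraries at hand and not calls.

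The libraries were unequal in a way that touches each of these statements. The 3 WT libraries held 42378859 to 50100226 counts in 24035 named genes, and the L2427P libraries held 53283035, 18627076 and 20965022. Genes above 0 numbered 6734, 11661 and 8580 in WT and 10239, 8016 and 3173 in L2427P. Among the 5000 genes highest in the other mRNA libraries, 54.98% had no count in L2427P replicate 3, against 0.28% to 16.58% in the other 5. The median gene above 0 had between 1080 and 4169 counts in a library, so that genes tended to be either well counted or missing. In L2427P replicate 3 the noncoding RNAs Rmrp and Rpph1, the RNA parts of RNase MRP and RNase P, took 5.71% and 5.40% of the counts, against 0.428% to 1.80% and 1.76% to 2.50% in the other 5, and protein-coding genes took 82.7% against 90.4% to 92.6%. Reads without a unique alignment were 56.4% to 62.4% of the counts in a WT file and 60.7%, 64.5% and 77.5% of the L2427P files. The main counts and list medians are therefore given with and without L2427P replicate 3.

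**Figure D1:**
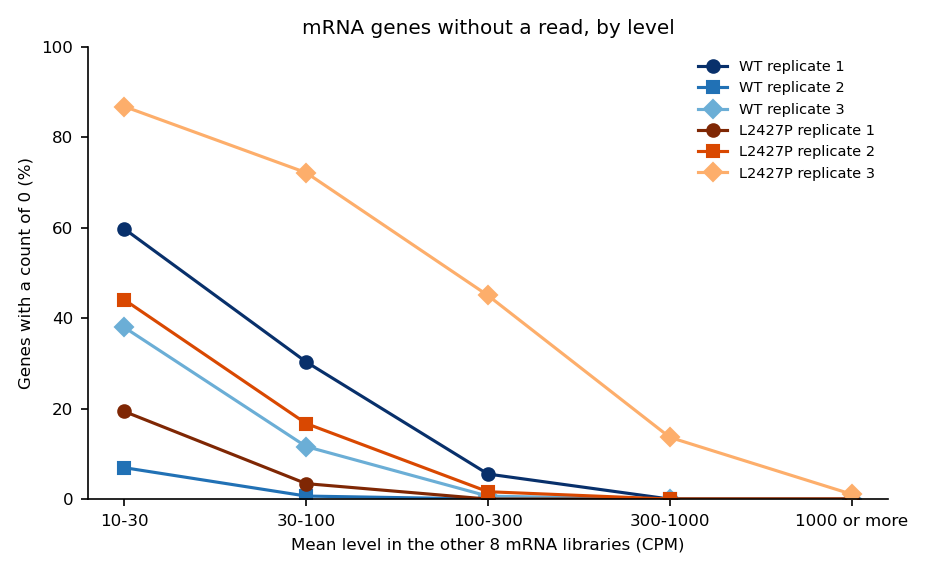
Share of genes with a count of 0 (y axis, %) in each WT and L2427P mRNA library, for genes grouped by their mean level in the other 8 mRNA libraries (x axis, CPM), with 1 line per library. L2427P replicate 3 lacked 45.0% of the genes at 100 to 300 CPM and 13.7% of those at 300 to 1000 CPM, and WT replicate 1 lacked 5.54% of the genes at 100 to 300 CPM.

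The share of missing genes at a given level differed between libraries. At 30 to 100 CPM in the other libraries, 72.2% of genes were at 0 in L2427P replicate 3 and 30.3% in WT replicate 1. At 1000 CPM or more, 1.08% were at 0 in L2427P replicate 3. A count of 0 allows up to 0.143 CPM in that library (3 counts), a limit that covers counting error only. The labels do not say whether the libraries of a group come from separate embryos, and the p-values measure only the spread between these libraries.

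The TOP motif is known from mRNAs of the kind that had the smallest p among the lower genes, so the start of some of these genes is shown, in RefSeq's GRCm38.p6 annotation, for 25 bases on each side of the annotated start. Capitals mark the longest run of at least 7 pyrimidines (C or T) on the gene's own strand. The first 4 genes encode parts of the translation apparatus, and the last pair, Ddit3 and Ppp1cb, are shown for contrast as a gene missing from L2427P and the higher gene with the smallest p.
Rpl5, chr5:107900503-107900552, plus strand: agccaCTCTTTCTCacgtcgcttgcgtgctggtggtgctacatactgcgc
Rplp0, chr5:115559442-115559491, plus strand: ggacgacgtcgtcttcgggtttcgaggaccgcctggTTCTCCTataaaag
Rps9, chr7:3704016-3704065, plus strand: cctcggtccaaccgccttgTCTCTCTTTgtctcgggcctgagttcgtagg
Eef2, chr10:81176606-81176655, plus strand: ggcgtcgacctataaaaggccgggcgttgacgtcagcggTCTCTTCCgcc
Ddit3, chr10:127290768-127290817, plus strand: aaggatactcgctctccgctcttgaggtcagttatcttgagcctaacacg
Ppp1cb, chr5:32458945-32458994, plus strand: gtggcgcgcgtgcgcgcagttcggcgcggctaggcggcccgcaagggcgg
The runs were 9 bases long in Rpl5 and in Rps9, 8 in Eef2 and 7 in Rplp0. Relative to the annotated start they began at base -20 in Rpl5, -6 in Rps9, 15 in Eef2 and 12 in Rplp0. Only the run of Rps9 spanned the annotated start, and that of Rpl5 ended upstream of it. The windows of Ddit3 and Ppp1cb held no run of that minimum length, their longest being 6 and 3 bases. Such a run was found in 29.3% of 32851 annotated promoter windows of the same length and in 56.9% of the 72 windows of 61 ribosomal protein genes. A match of letters is a description of the window and not evidence of a start site. No entry for Rpl36 or Rpl3 was used.

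In the fit of all 9 mRNA libraries, 0 of 9558 genes passed an adjusted p of 0.05 (0%), and the smallest adjusted p was 0.467, that of Rpl5. At an unadjusted p below 0.05, 19 genes were higher in L2427P (0.199%) and 212 were lower (2.22%). With DESeq2 size factors in the place of TMM factors the split was 80 higher and 174 lower. The median log2 fold change of all tested genes was -0.28 with TMM factors and -0.07 with DESeq2 size factors, and values of single genes and lists are read against it. Without L2427P replicate 3, 0 of 10711 genes passed by edgeR (0%), 46 were higher (0.429%) and 73 lower (0.682%) at an unadjusted p below 0.05, and the median log2 fold change of all genes was -0.04. The median standard error of the log2 fold change over the 2212 genes with a mean of 100 CPM or more was 1.34 with L2427P replicate 3 and 0.85 without it.

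The levels themselves did not overlap between the groups for 208 genes that were higher in every L2427P library (2.18%) and 597 that were lower (6.25%). Without L2427P replicate 3 the balance turned, with 988 genes higher (9.22%) and 780 lower (7.28%). In this tally the balance of higher and lower genes depended on the sparse library, while lower genes remained the larger number at an unadjusted p below 0.05.

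DESeq2's Wald test called 239 genes at an adjusted p below 0.05, which is 2.82% of the 8463 genes it gave an adjusted p, with 33 higher and 206 lower. Of the 239, 234 had fewer than 1 CPM in all libraries of one group, and Ppp1cb was the 1 gene among them with at least 1 CPM in all 6 libraries. Without L2427P replicate 3 the same test called 290 genes (3.46%), 15 higher and 275 lower, of which 286 were below 1 CPM throughout one group and 0 had 1 CPM or more in every library. Ppp1cb was no longer called there, at an adjusted p of 0.425 by DESeq2.

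Ppp1cb stood at 76.6, 113 and 161 CPM in WT and at 333, 462 and 1297 CPM in L2427P. The lowest L2427P library lay above the highest WT library, and L2427P replicate 3 was the highest of all. Its log2 fold change was 2.12 (SE 0.82, n = 3 and 3, edgeR adjusted p = 1.00, unadjusted p = 0.00984) and 1.75 without L2427P replicate 3, and it was between 1.75 and 2.84 in all 14 alternatives. Its ribosome footprints, which were not used to choose it, were 0.390, 176 and 165 CPM in WT and 222, 275 and 244 CPM in L2427P. They did not overlap either, as was the case for 7.59% of the 8226 genes tested in footprints, with a log2 fold change of 1.16 (SE 1.17, edgeR adjusted p = 1.00). In the mRNA of C1483Y, which was set against the same WT libraries, Ppp1cb was at 154, 129 and 401 CPM.

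Ralgps2, a guanine nucleotide exchange factor for Ral GTPases, was at 0.220, 68.6 and 94.6 CPM in WT and 255, 259 and 732 CPM in L2427P, so the groups did not overlap. Its log2 fold change was 2.48 (SE 1.22, edgeR adjusted p = 1.00) and 2.21 without L2427P replicate 3. Gabrb2, which encodes the beta 2 subunit of the GABA-A receptor, had 0, 0.448 and 0 CPM in WT and 110, 53.8 and 369 CPM in L2427P. Hook1, a dynein adaptor, had 0, 0.307 and 0 CPM in WT against 33.4, 57.5 and 282 CPM. Both were nearly absent from WT and counted in each L2427P library, and in footprints Gabrb2 was highest in a WT library, at 81.2 CPM, while Hook1 was above 3 CPM in 1 library alone, WT replicate 2 at 54.9 CPM. Of the 12 higher genes with the smallest p, 6 did not overlap between the groups and 11 stayed above 0 in log2 fold change without L2427P replicate 3. BC018473 was at 4520 CPM in L2427P replicate 3 and at 316 to 753 CPM in the other 5 libraries, so its height rested on that library. Its log2 fold change was 1.17, and -0.42 without that library. Hspd1, a mitochondrial chaperonin, was at 83.3, 80.5 and 57.4 CPM in WT and 63.7, 237 and 987 CPM in L2427P. Its log2 fold change of 1.96 was 0.99 without L2427P replicate 3.

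**Figure D2:**
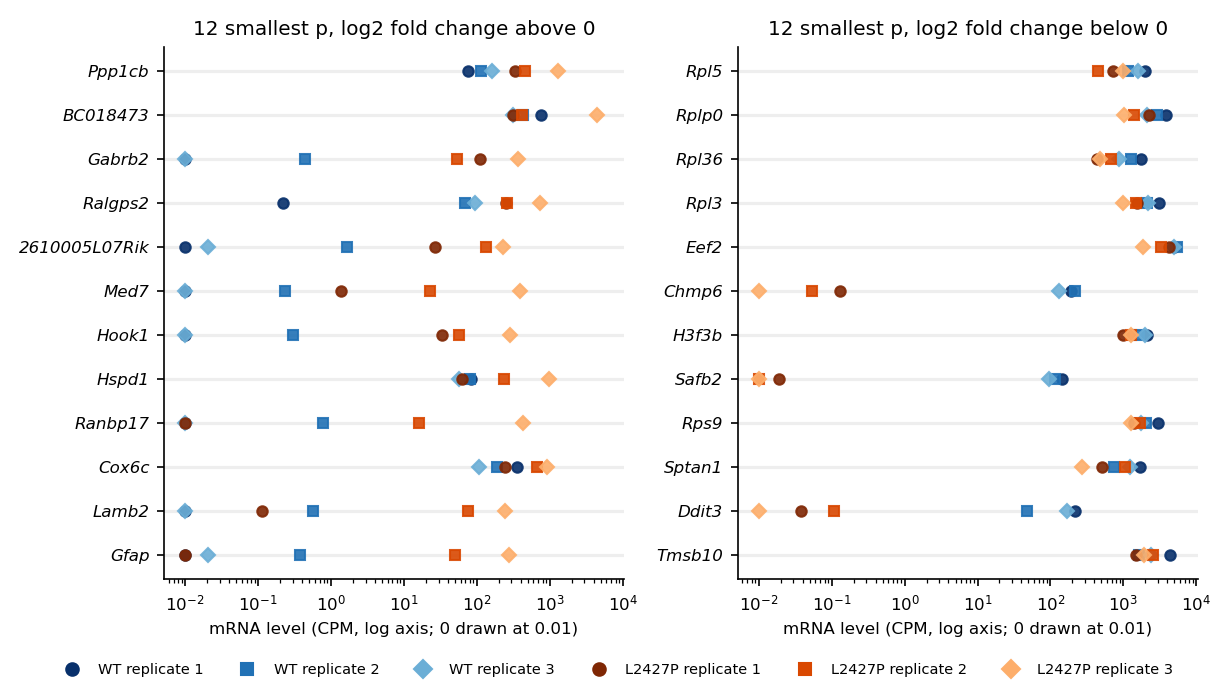
Level of each gene (x axis, CPM on a log axis, with 0 drawn at 0.01) in the 3 WT libraries (blue) and the 3 L2427P libraries (brown to orange), for the 12 genes with the smallest p and a log2 fold change above 0 (left) and below 0 (right) among genes with a mean of 50 CPM or more. Ppp1cb separated the groups with counts in all libraries, while Chmp6, Safb2 and Ddit3 lay below 1 CPM in each L2427P library.

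Some genes that were higher without the sparse library were counted in all 6 libraries. Tbcb, a cofactor of tubulin folding, was at 222, 187 and 275 CPM in WT and 442, 585 and 469 CPM in L2427P, with no overlap with or without replicate 3. Psma2, a subunit of the proteasome core, was at 100, 175 and 151 CPM in WT and 302, 570 and 199 CPM in L2427P. Ip6k1, an inositol hexakisphosphate kinase, was at 155, 244 and 222 CPM in WT and 532 and 561 CPM in the first pair of L2427P libraries but at 225 CPM in replicate 3, within the WT range. In footprints, Tbcb was at 0.520, 86.4 and 114 CPM in WT and 199, 255 and 112 CPM in L2427P, which overlap.

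Among lower genes the smallest p belonged to Rpl5, a protein of the large ribosomal subunit that also binds the p53 regulator MDM2. It was at 1963, 1167 and 1583 CPM in WT and 712, 444 and 975 CPM in L2427P, without overlap. Its log2 fold change was -1.43 (SE 0.35, edgeR adjusted p = 0.467) and -1.40 without L2427P replicate 3 (edgeR adjusted p = 0.552). Rplp0, a protein of the ribosomal stalk, was at 3867, 2883 and 2122 CPM in WT and 2249, 1387 and 1028 CPM in L2427P, where the highest L2427P library passed the lowest WT library, and its log2 fold change of -1.04 was -0.66 without L2427P replicate 3. Rpl36 was at 1717, 1267 and 879 CPM in WT and 439, 672 and 476 CPM in L2427P. Rpl3 was at 3103, 2112 and 2182 CPM in WT and 1540, 1490 and 977 CPM in L2427P. For Rpl36 and Rpl3 all 3 L2427P libraries lay below all 3 WT libraries.

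Ribosomal protein genes have many processed pseudogenes, so reads of a member can be lost as not unique or split, and single values of the family are uncertain for that reason. Taken as counts, 75 of the 79 members tested had a log2 fold change below 0, and 66 did without L2427P replicate 3. Among all genes 5598 of 9558 were below 0, and 5466 of 10711 without L2427P replicate 3. At an unadjusted p below 0.05, 19 of 79 (24.1%) were lower and 0 were higher, and without L2427P replicate 3 the number lower was 5. Because abundant genes reach a small p more readily, the 61 members with a mean of 500 CPM or more were set beside the 183 other genes of that level. Of the members 19 had an unadjusted p below 0.05 and were lower, against 12 of the 183 others (6.56%), and 9 of the members were lower without overlap, against 9 of the 183 others (4.92%). Leaving out L2427P replicate 3, these were 5 of the 61 members against 5 of the 183 others (2.73%), and 15 of the members against 19 of the others (10.4%).

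Over all tested members, 11 (13.9%) were lower without overlap and 1 was higher, beside 6.25% and 2.18% of all genes. With that library left out, 18 were lower and 2 were higher, beside 7.28% and 9.22% of all genes. The large subunit gave 8 of them (Rpl3, Rpl5, Rpl7a, Rpl13a, Rpl14, Rpl17, Rpl23a and Rpl36) and the small subunit 3 (Rps9, Rps19 and Rps25). Rps19 was at 934, 1214 and 1161 CPM in WT and 671, 621 and 0 CPM in L2427P, so that its separation held in the libraries that counted it. The exception was Rps29 of the small subunit, at 898, 1185 and 1060 CPM in WT and 1423, 1950 and 1644 CPM in L2427P. Rps6, the S6 kinase substrate, was at 2361, 1429 and 1957 CPM in WT and 1226, 1228 and 2654 CPM in L2427P, where replicate 3 was the highest of the 6. By an exact two-sided permutation test on log2(CPM + 1), Rps6 gave p = 0.6 (17 genes tested, adjusted p = 0.85).

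The whole list took 10.1%, 8.85% and 7.43% of the WT mRNA counts and 6.73%, 7.34% and 5.63% of the L2427P counts. The highest L2427P share was just under the lowest WT share. In C1483Y it took 8.71%, 7.66% and 7.44%, within the WT range. Among the 68 members counted in all 6 libraries, the ratio of mean CPM in L2427P to that in WT had a median of 0.738 and ran from 0.411 for Rpl36 to 1.60 for Rps29, with 57 below 1. Without L2427P replicate 3 the median was 0.838 and 59 were below 1. The median log2 fold change was -0.62 for the large subunit and -0.56 for the small subunit, beside -0.28 for all genes, and -0.28 and -0.26 without L2427P replicate 3, beside -0.04. Both lists lay below all genes under either scaling and when each library was left out, except without L2427P replicate 1, where they lay above by 0.09 and 0.14 and the median of all genes was -0.94. The share of reads not aligned uniquely was highest in the 2 L2427P libraries with the fewest counts, and its part in the lower ribosomal protein levels was not tested.

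**Figure D3:**
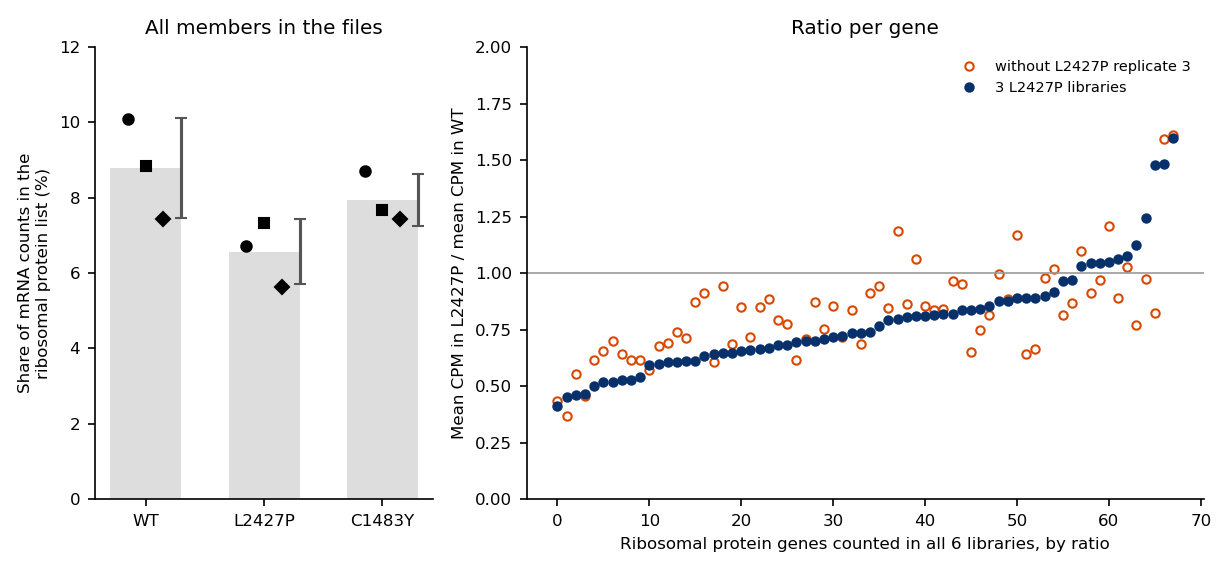
Left, share of the mRNA counts in the ribosomal protein list (y axis, %) by genotype, with points for the 3 libraries, bars for their mean and error bars for 1 SD. Right, ratio of mean CPM in L2427P to mean CPM in WT (y axis) for the 68 members counted in all 6 libraries, in order of the ratio, with (filled) and without (open) L2427P replicate 3. Most members lay below 1, with 57 of 68 with replicate 3 and 59 without it.

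Eef2, elongation factor 2, was at 4958, 5382 and 5006 CPM in WT and 4222, 3228 and 1841 CPM in L2427P, with no overlap. Its log2 fold change was -0.84 (SE 0.26, edgeR adjusted p = 1.00) and -0.44 without L2427P replicate 3, and its exact permutation p was 0.1, the lowest possible with 3 libraries on each side (adjusted p = 0.85 over 17 genes). In footprints Eef2 was at 1333, 2451 and 1875 CPM in WT and 4222, 2053 and 2330 CPM in L2427P, which overlap. Eef1a1, which brings aminoacyl-tRNA to the ribosome, was at 5572, 7685 and 6306 CPM in WT and 6115, 5123 and 6514 CPM in L2427P, and these overlapped. The initiation helicase Eif4a1 was at 4009, 2534 and 3470 CPM in WT and 2386, 2885 and 2710 CPM in L2427P. Its footprints were higher in L2427P without overlap, at 2211, 2113 and 2251 CPM in WT and 3387, 3104 and 2856 CPM in L2427P. This was the case for 7.59% of the genes tested in footprints. Of 39 initiation factors and 4E-BPs tested, 1 was lower at an unadjusted p below 0.05 and 0 were higher. The shares over all genes were 2.22% and 0.199%. The median log2 fold change of this list was -0.36, and -0.14 without L2427P replicate 3, beside -0.28 and -0.04 for all genes. Relative to all genes that median was below 0 in 6 of the 14 alternatives and above 0 in 8.

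Outside the translation apparatus, the abundant lower genes with the smallest p were H3f3b, Sptan1 and Tmsb10. H3f3b, a gene of histone H3.3, was at 2130, 1624 and 1992 CPM in WT and 991, 1264 and 1280 CPM in L2427P, without overlap and with a log2 fold change of -0.94 (SE 0.32, edgeR adjusted p = 1.00), and -0.76 without L2427P replicate 3. In footprints H3f3b was at 1337, 801 and 1284 CPM in WT and 902, 1037 and 1345 CPM in L2427P, which overlap. Sptan1, the alpha chain of brain spectrin, was at 1667, 744 and 1242 CPM in WT and 505, 1050 and 272 CPM in L2427P. Tmsb10, an actin-monomer binding thymosin, was at 4343, 1660 and 2364 CPM in WT and 1492, 2555 and 1925 CPM in L2427P. Sptan1 and Tmsb10 overlapped between the groups.

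The 62 genes that were present in every WT and absent from every L2427P library make up 0.649% of the genes tested, at limits of 20 CPM and 1 CPM that were chosen after the values were seen. Chmp6, a subunit of the ESCRT-III membrane remodelling complex, was at 189, 219 and 131 CPM in WT and at 0.131, 0.0537 and 0 CPM in L2427P, which are 7, 1 and 0 counts. Safb2, a scaffold attachment factor, was at 144, 116 and 94.6 CPM in WT and at 0.0188, 0 and 0 CPM. Ddit3, the stress transcription factor CHOP, was at 218, 48.1 and 167 CPM in WT and at 0.0375, 0.107 and 0 CPM. All 3 genes were at 30 CPM or more in at least one C1483Y library, but each was missing or low in another, with Chmp6 at 81.7, 90.8 and 0 CPM, Ddit3 at 33.7, 97.2 and 0 CPM and Safb2 at 4.49, 69.7 and 104 CPM.

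The set also holds Rragb, one of the Rag GTPases that bring amino acid signals to mTORC1, at 26.6, 41.7 and 99.1 CPM in WT and 0 in all 3 L2427P libraries. Gria4, a subunit of AMPA receptors, was at 85.9, 21.6 and 20.1 CPM in WT and 0 in L2427P. Pcp4, a calmodulin regulator of deep-layer neurons, was at 95.7, 51.7 and 54.4 CPM in WT and at 0.0188, 0 and 0 CPM in L2427P. These genes were also missing from C1483Y mRNA libraries. Pcp4 was at 0 CPM in all 3 of them, Rragb at 27.4, 0.0196 and 0 CPM, and Gria4 at 0, 0 and 55.5 CPM. Without L2427P replicate 3 the set numbered 74 (0.774%). The opposite pattern, at 20 CPM or more in every L2427P and below 1 CPM in every WT library, held for 5 genes (0.0523%), Gabrb2, Hook1, D2hgdh, Tsc22d4 and Rhbdd3, and for 35 without L2427P replicate 3 (0.366%). The sparse library thus bore on the balance, since a gene missing there could not be present in all L2427P libraries.

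Footprints of the same genotypes offer a second reading of these genes. Of the 62 genes, 46 had footprints at 20 CPM or more in at least 1 L2427P footprint library, 12 had them in all 3, and 3 were below 1 CPM in all 3. In WT footprints, 42 reached 20 CPM in at least 1 library and 6 in all 3. In C1483Y mRNA 49 of the 62 were present in at least 1 library, 10 were present in all 3 and 6 were absent from all 3. Safb2, with no L2427P mRNA above 0.0188 CPM, had footprints of 148, 44.9 and 70.5 CPM in L2427P and 33.8, 210 and 88.5 CPM in WT. Absence from the mRNA libraries of a genotype was therefore mostly not matched by absence from its footprints.

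**Figure D4:**
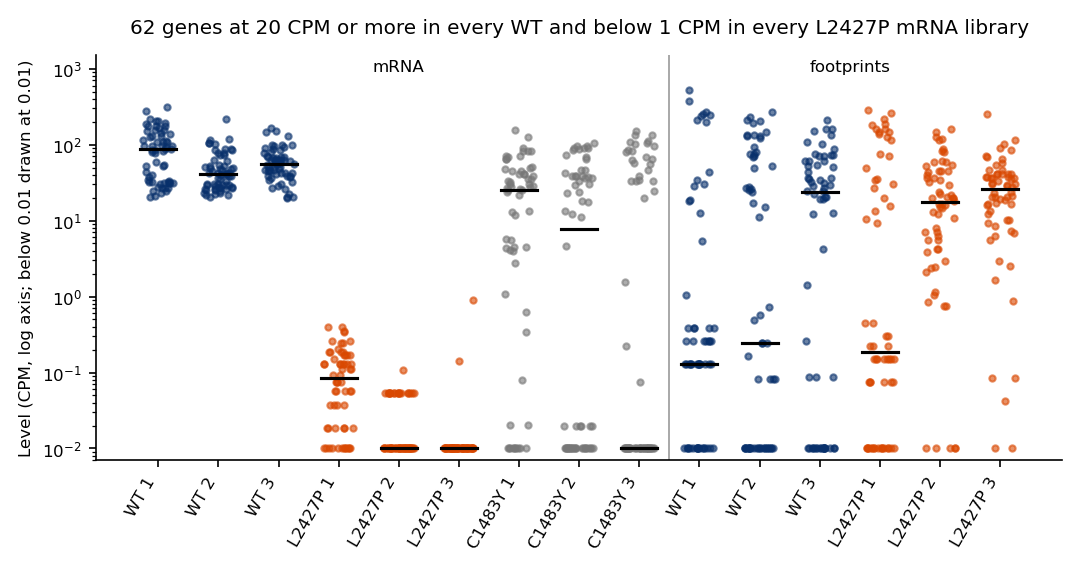
Level of the 62 genes (y axis, CPM on a log axis, with values below 0.01 drawn at 0.01) in each mRNA library of WT (blue), L2427P (orange) and C1483Y (grey), and in the footprint libraries of WT and L2427P, with 1 point per gene and a bar at the median. The WT and L2427P mRNA columns are apart because the genes were chosen so, while 46 of the 62 reached 20 CPM in at least 1 L2427P footprint library.

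Across the 12 lower genes with the smallest p, 10 were tested in footprints, 5 had a footprint log2 fold change below 0 and 0 were lower without overlap, which held for 2.05% of the genes tested in footprints. Across the 12 higher genes, 8 were tested, 4 had a footprint log2 fold change above 0, and Ppp1cb was the 1 without overlap. The smallest edgeR adjusted p in footprints was 1.00 in either set. All counts of footprint library WT replicate 3 are multiples of 3, by a step that no label records. This does not alter its CPM but enters the edgeR fit of the footprints. Without that library edgeR called 3 of 9506 genes in footprints at an adjusted p below 0.05, against 0 of 8226 with it.

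The targeted gene was checked first among the genes of the pathway. Mtor was at 455, 600 and 655 CPM in WT and 587, 388 and 297 CPM in L2427P, with a log2 fold change of -0.56 (SE 0.58, edgeR adjusted p = 1.00). The exact permutation test gave p = 0.2 (adjusted p = 0.85 over 17 genes). Its footprints were at 3593, 3020 and 4242 CPM in WT and 730, 2681 and 2360 CPM in L2427P, without overlap, with a log2 fold change of -1.03 (SE 0.28, edgeR adjusted p = 0.820). The mRNA levels of Mtor overlapped between the groups, and counts per gene do not tell mRNA of the construct from that of the host. Of the mTOR complex genes 7 were tested, and 0 had an unadjusted p below 0.05 or levels without overlap. Their median log2 fold change was -1.12, and -0.53 without L2427P replicate 3, and it lay below that of all genes in all 14 alternatives. Of the 9 mTOR complex genes in the list, 2, 1 and 3 were at 0 in the WT libraries and 2, 2 and 7 in the L2427P libraries. Rptor, the mTORC1 scaffold, was at 83.4, 67.3 and 135 CPM in WT and 18.1, 77.8 and 0 CPM in L2427P. Rictor, the mTORC2 scaffold, was at 63.1, 56.0 and 46.0 CPM in WT and 50.3, 115 and 0 CPM in L2427P.

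Of 48 genes upstream and downstream of mTOR, 1 was lower at an unadjusted p below 0.05, Rragb, and 0 were higher. The shares over all genes were 2.22% and 0.199%. The median log2 fold change of this list was -0.03, and 0.29 without L2427P replicate 3, beside -0.28 and -0.04 for all genes. Levels without overlap were higher for 2 of its members and lower for 1, beside 2.18% and 6.25% of all genes. Pik3r1, a regulatory subunit of PI3 kinase, was higher without overlap, at 63.2, 59.2 and 16.9 CPM in WT and 189, 292 and 149 CPM in L2427P. Lamtor5, of the Ragulator complex that anchors Rag GTPases to lysosomes, was at 56.3, 170 and 47.4 CPM in WT and 328, 170 and 241 CPM in L2427P, where the lowest L2427P value was above the highest WT value only by a fraction of 1 CPM. The inhibitor Tsc2 was at 35.7, 66.7 and 98.4 CPM in WT and 98.5, 95.8 and 210 CPM in L2427P, and these overlapped. Depdc5 of the GATOR1 complex was at 26.0, 44.6 and 127 CPM in WT and 114, 51.2 and 0 CPM in L2427P.

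Among programs that mTORC1 is known to drive in other cells, the counts differed with and without L2427P replicate 3. With it left out, 6 of the 34 sterol and fatty acid synthesis genes were higher without overlap and 1 was lower, with a median log2 fold change of 0.37. For the 21 glycolytic enzymes then tested these were 3 and 1, with a median of 0.33. Over all genes the shares were 9.22% and 7.28% and the median was -0.04. Of 34 sterol and fatty acid synthesis genes 0 had an unadjusted p below 0.05, and Fdps, a farnesyl diphosphate synthase, was higher without overlap at 684, 657 and 348 CPM in WT and 714, 715 and 1672 CPM in L2427P. Srebf1, the transcription factor SREBP1, was lower at 82.5, 65.4 and 35.7 CPM in WT and 4.24, 0.322 and 0 CPM in L2427P. Its footprints went the other way without overlap, at 0, 40.4 and 64.7 CPM in WT and 588, 71.1 and 95.6 CPM in L2427P. Footprints were higher without overlap for 7.59% of the genes tested in footprints. Of 20 glycolytic enzymes 0 had an unadjusted p below 0.05, and Pgk1, phosphoglycerate kinase, was at 81.3, 431 and 92.6 CPM in WT and 381, 603 and 295 CPM in L2427P. It was the 1 glycolytic enzyme with an unadjusted p below 0.05 in edgeR when L2427P replicate 3 was left out, with a log2 fold change of 1.24. Of 25 tRNA synthetases and ATF4 targets, Ddit3 was the 1 with an unadjusted p below 0.05, and it was lower. At that limit 2.22% of all genes were lower. Of 37 proteasome and ubiquitin genes, 2 were higher without overlap (Psma2 and Psmd2) and 1 was lower (Psmd3), beside 2.18% and 6.25% of all genes. Psmd2 was at 345, 334 and 595 CPM in WT and 627, 826 and 1141 CPM in L2427P, the highest value being that of replicate 3.

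Genes of the neuronal cytoskeleton differed in both directions. Of 30 microtubule regulators of migrating neurons, 4 were higher without overlap (Pafah1b1, Mapre1, Stmn3 and Tbcb) and 1 was lower (Tbca), beside 2.18% and 6.25% of all genes. With L2427P replicate 3 left out, 5 were higher and 3 lower, beside 9.22% and 7.28% of all genes. Tbca, the cofactor that accepts beta tubulin, was at 131, 202 and 110 CPM in WT and 5.22, 45.4 and 0 CPM in L2427P, with a log2 fold change of -3.20 (SE 1.54, edgeR adjusted p = 1.00) and -2.62 without L2427P replicate 3. Tbcb, another cofactor of tubulin folding, was higher, as given above. Dctn1, the p150 subunit of dynactin, was at 395, 112 and 124 CPM in WT and 52.7, 0.161 and 0 CPM in L2427P. Dctn2, another dynactin subunit, was at 733, 700 and 515 CPM in WT and 468, 351 and 340 CPM in L2427P. Tuba1a and Tubb3, the main neuronal tubulins, overlapped between the groups, with Tuba1a at 2833, 8232 and 4297 CPM in WT and 9348, 5789 and 4913 CPM in L2427P.

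Synaptic vesicle and release genes had the lowest median among lists with 10 or more members tested, at -0.80 over 26 genes, and -0.33 without L2427P replicate 3. Of its 31 members, 10, 0 and 7 were at 0 in the WT libraries and 5, 9 and 24 in the L2427P libraries. The list lay below all genes in all 14 alternatives, by 0.30 to 0.92, though these reuse the same libraries. None had an unadjusted p below 0.05 (0 of 26), 2 were lower without overlap (Syt1 and Unc13a) and 1 was higher (Syp), beside 6.25% and 2.18% of all genes. Syt1, the calcium sensor of release, was at 113, 56.9 and 97.9 CPM in WT and 27.0, 0 and 0 CPM in L2427P. Syp, synaptophysin, was at 205, 171 and 190 CPM in WT and 238, 307 and 341 CPM in L2427P. Of 27 ion channel and transmitter receptor genes, 3 were lower without overlap and 1 was higher, beside 6.25% and 2.18% of all genes. Gria4 and Scn8a were among the lower genes, and Gabrb2 was higher. The median log2 fold change of this list was 0.22, and 0.31 without L2427P replicate 3, beside -0.28 and -0.04 for all genes. It lay above that of all genes in 13 of the 14 alternatives. Scn8a, a sodium channel, was at 22.7, 10.6 and 43.9 CPM in WT and 0 in L2427P.

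Regulators of RNA differed one by one. Ptbp2, a neuronal splicing repressor, was at 312, 302 and 243 CPM in WT and 140, 51.0 and 0 CPM in L2427P, with a log2 fold change of -2.12 (SE 1.01, edgeR adjusted p = 1.00) and -1.53 without L2427P replicate 3. All 3 L2427P values lay below the WT values. Ybx1, an mRNA packaging protein, was at 1006, 473 and 616 CPM in WT and 128, 318 and 993 CPM in L2427P, so that it was lower only in the first pair of libraries. Mcl1, a survival factor of the BCL2 family, was higher without overlap, at 23.2, 189 and 129 CPM in WT and 205, 312 and 317 CPM in L2427P. Klf6, a transcription factor, was at 0, 29.1 and 12.8 CPM in WT and 137, 113 and 147 CPM in L2427P.

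**Figure D5:**
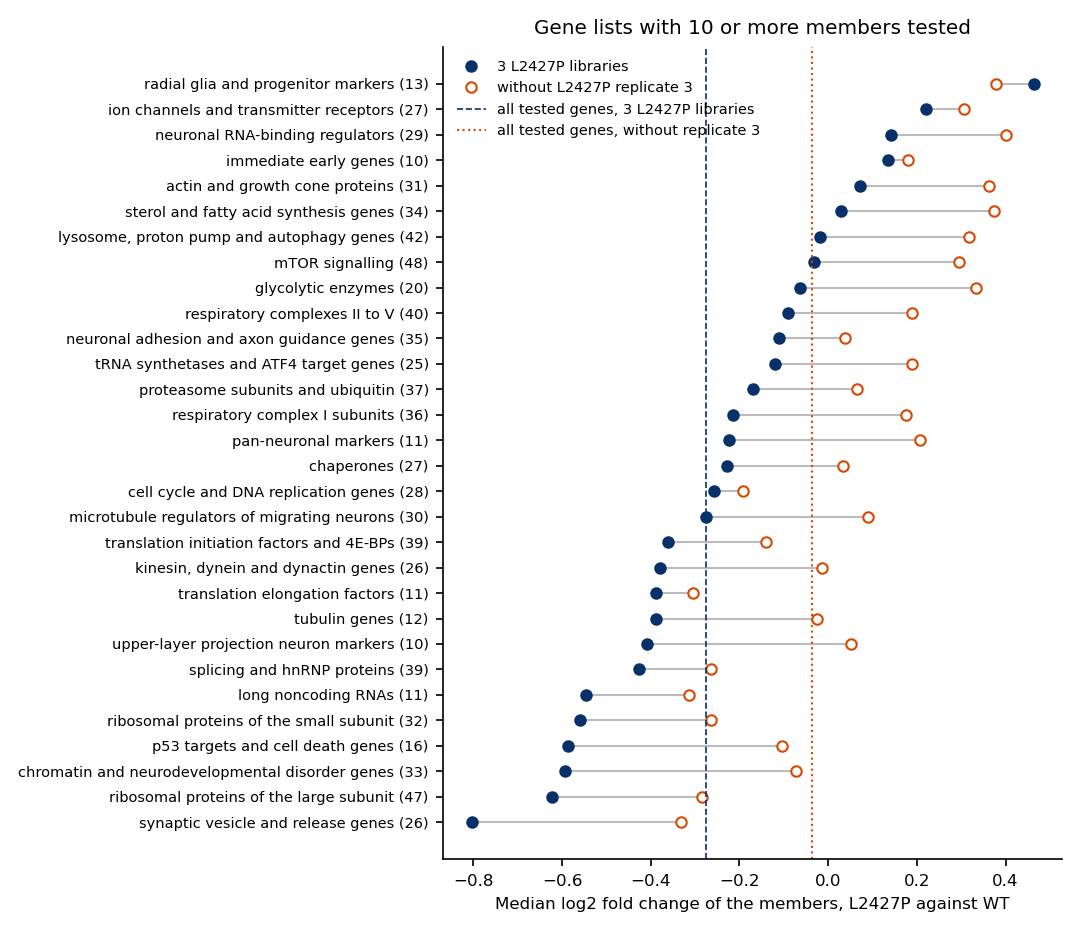
Median log2 fold change of L2427P against WT (x axis) for each gene list with 10 or more members tested (number in brackets), with all 3 L2427P libraries (filled) and without L2427P replicate 3 (open), and lines for the medians of all tested genes, -0.28 and -0.04. Synaptic vesicle genes were lowest at -0.80 and -0.33, and radial glia markers were highest with replicate 3, at 0.46, and at 0.38 without it, where neuronal RNA-binding regulators were higher at 0.40.

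The neuronal markers Tubb3 and Dcx were counted in every library, while other markers were missing from some. Of the 12 pan-neuronal markers, 1 to 3 were at 0 in the WT libraries and 1, 2 and 6 in the L2427P libraries, and of the 12 upper-layer markers 7 were at 0 in L2427P replicate 3. Tubb3 was at 2472, 4279 and 2646 CPM in WT and 4361, 2894 and 1331 CPM in L2427P, and Dcx, a protein of migrating neurons, was at 369, 886 and 535 CPM in WT and 1067, 615 and 768 CPM in L2427P. Both overlapped between the groups. In bulk libraries fewer cells of a type and less RNA per cell cannot be told apart. The 12 upper-layer markers summed to 1987 to 2185 CPM in WT and 1274 to 2216 CPM in L2427P, and the 12 deep-layer markers to 801 to 1196 CPM and 790 to 2915 CPM. The deep-layer maximum was that of replicate 3, where Tbr1 was at 718 CPM against 32.4 to 101 CPM in the other 5 and 9 of the 12 markers were at 0.

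The 12 pan-neuronal markers summed to 4133 to 7174 CPM in WT and 4271 to 7345 CPM in L2427P, and the markers of other cells had lower sums with a wide spread. The 14 radial glia and progenitor markers summed to 946 to 1303 CPM in WT and 1369, 1491 and 2466 CPM in L2427P, so all 3 L2427P sums were higher, while 0 of the 13 tested members had an unadjusted p below 0.05 or levels without overlap. Fabp7, a radial glial fatty acid binding protein, had the highest mean of these, at 410, 387 and 448 CPM in WT and 412, 679 and 1235 CPM in L2427P. Of the 14 markers, 3, 0 and 3 were at 0 in the WT libraries and 2, 1 and 7 in the L2427P libraries. Pax6, a defining marker, was at 14.8, 19.8 and 0 CPM in WT and 92.2, 50.7 and 0 CPM in L2427P. The 9 astrocyte markers summed to 350 to 535 CPM in WT and 467 to 1050 CPM in L2427P, with Gfap at 0, 0.378 and 0.0209 CPM in WT and 0, 50.6 and 281 CPM in L2427P. The 12 microglia and macrophage markers summed to 71.6 to 202 CPM in WT and 214, 494 and 253 CPM in L2427P. Each L2427P sum was again higher, the lowest only slightly, and single genes made up much of some sums. C1qa was at 162, 19.7 and 0.0209 CPM in WT and 37.5, 67.3 and 163 CPM in L2427P. Of the 12 markers, 8, 3 and 8 were at 0 in the WT libraries and 2, 6 and 10 in the L2427P libraries. Among the 9 tested, 0 had an unadjusted p below 0.05 in edgeR or levels without overlap.

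The other cell types gave little signal. The 12 interneuron markers summed to 39.8 to 216 CPM in WT and 164, 258 and 0 CPM in L2427P, and Gad1 was at 0 in 3 of the 6 libraries. The 8 oligodendrocyte markers summed to 64.2 to 133 CPM in WT and 140, 23.1 and 0 CPM in L2427P. The 11 endothelial and mural markers summed to at most 7.10 CPM in WT and 59.2 CPM in L2427P, the 9 meningeal and fibroblast markers to at most 132 and 139 CPM, and the 12 erythroid genes to at most 86.4 and 26.4 CPM, with the globin gene Hbb-bs at 0 in all 6 libraries. The part of other cells in the differences between the groups was not tested.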

How the data were processed

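The values are whole-number counts per gene symbol, 1 file per library, as deposited by the authors. Per the submitters' processing notes, the tools were HTSeq, TopHat2 2.1.1 and Bowtie 1.1.2 and the build was mm10, with no roles stated. The sources used here give no strand setting or annotation. Summary lines and 27 names turned into dates (0.0935% to 0.328% of the mRNA gene counts) were left out, and CPM were computed over 24035 named genes. Genes were kept by edgeR's filterByExpr (minimum count 10) and tested with R 4.3.3 and edgeR 4.0.16 (quasi-likelihood F test, robust, TMM factors, Benjamini-Hochberg at 0.05) in a fit of all 9 mRNA libraries. Standard errors are log2 fold changes over the root of F. Footprints were fitted alone, with 3 libraries per genotype. DESeq2 1.42.0 (Wald test, size factors) and 14 alternatives in all were tried, and the scripts were tested on simulated data. Mouse symbols matched RefSeq for 93.8%.

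Named genes were drawn from the 12 genes with the smallest p in each direction at a mean of 50 CPM or more, up to 6 per direction without L2427P replicate 3, the 2 members of each of 42 lists with the smallest p and the 2 with the highest mean, and 17 genes always given. Pik3r1, Lamtor5, Tsc2, Depdc5, Rptor, Rictor, Rps19, Rps29, Syt1 and Scn8a, and the genes named for being present in one group alone and those named in counts of levels without overlap, were chosen after their values were seen. Members and lists were chosen with earlier results of these data known, so counts over lists are descriptions. Footprint libraries of C1483Y were not used here, and a few genes that the rule names are not reported here.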

Additional observations from a re-analysis of the deposited data

How the results depend on the processing

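The count of genes with an edgeR adjusted p below 0.05 was 0 with TMM or DESeq2 size factors, with or without the filter on low counts, for the 6 libraries alone and for abundant genes alone. Leaving out 1 library at a time gave 0 to 3, and the 3 without L2427P replicate 1 were Eef2, Rplp0 and Dctn1, all lower. Without both sparse libraries, L2427P replicate 3 and C1483Y replicate 3, the count was 1, Chmp6 (adjusted p = 0.00322). DESeq2's Wald test called 239, and 290 without L2427P replicate 3, nearly all of them missing from one group. The cause of these differences was not tested. Same-numbered libraries did not deviate together (r = 0.06, -0.04 and 0.03 across genes, which are not independent replicates). These values gave no sign of pairing but cannot exclude it, since missing genes weigh on the deviations and the labels are silent on it. The replicate block called 3 genes, Rplp0, Rpl5 and Rpl3, and put both ribosomal protein lists above the median of all genes by 0.23. Among 165 named genes the sign of the log2 fold change differed in 0 to 20 per alternative. Genes above 0 were deeply counted (a median of 1080 counts or more per library), and the number of genes above 0 was lowest in L2427P replicate 3.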
